A study of Mus musculus with 4 samples.

Results

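The translation initiation and elongation factors were taken as the genes whose symbol begins with Eif and a digit from 1 to 6 or with Eef and 1 or 2. The Eif2ak kinases, Eif2s3y and symbols of pseudogenes marked -ps were left out. Of 43437 genes in the tables, 70 matched the symbols and 59 remained after these exclusions. A mean of at least 1 FPKM (fragments per kilobase of transcript, scaled to the mapped fragments of the library) over the 4 libraries was reached by 56 of the 59, which were tested. The other 3 were Eef1a2, Eif4e1b and Eif2c5.

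The question was how the RNA of these factors differed between satellite cells (muscle stem cells) with and without HDAC4, a histone deacetylase that mainly represses transcription. HDAC4 KO cells came from C57BL/6 mice of the genotype HDAC4fl/fl Pax7CE/+ Cre given tamoxifen, and control cells from mice with the same alleles that had vehicle alone, all 4 weeks old. The cells were sorted by flow cytometry for integrin alpha 7 and against CD45, Ter119, CD31 and Sca1, and grown for 24 h in growth medium. There were 2 libraries a group, named HDAC4 KO 3 and HDAC4 KO 4 and control 3 and control 4. The Cre recombinase is a CreER fusion inserted into Pax7, so that both groups carried it in 1 Pax7 allele and recombination was limited to cells that use the Pax7 promoter. Recombination shifts the reading frame of Hdac4. Only the HDAC4 KO mice were given tamoxifen, so the effect of the drug and that of the deletion cannot be told apart. It is not given whether each library is a separate animal. The p-values therefore rest on the spread between these libraries, and the number of animals behind it is not known. Within each group the 2 libraries differed in X-linked Xist and in Y-linked RNA, as given below, so they were not repeats of the same RNA.

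Translation starts when eIF2 brings the initiator tRNA to the small ribosomal subunit, with eIF1, eIF1A, eIF3 and eIF5 bound to it, and when eIF4F (the cap binding protein eIF4E, the scaffold eIF4G and the helicase eIF4A) brings the mRNA. After the start codon is found, eIF5B joins the large subunit, eEF1A delivers each aminoacyl-tRNA and eEF2 moves the ribosome along. Supply of these factors and their control through mTOR and the eIF2 kinases set how much protein a cell makes, and satellite cells increase protein synthesis when they leave quiescence.

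In the deposited tables the decimal point was missing from most values of 1 or more, and it was put back as described under the processing. For 34 of the 56 members this fixed the level, and FPKM are given. For the other 22 the ratios between libraries were fixed but a power of 10 common to all 4 was not. For these each library is given as a percentage of the mean of both controls. On the log2(FPKM + 1) scale, the differences, SE and p of genes with an open level, Hdac4 among them, rest on the likeliest power of 10. The tables give no depth, so no counting interval is given. Hdac4 itself stood at 29.0% and 43.3% of the control mean in HDAC4 KO cells, against 92.6% and 107.4% in controls, a difference of -1.13 ± 0.19 on the log2(FPKM + 1) scale (SE) with an unadjusted p of 0.0024 and an adjusted p of 0.193 in limma. Of 7 satellite cell and myoblast markers 6 were restored, Myod1 and Pax7 among them, all with a mean of at least 1 FPKM. Their values summed to 770.0 and 759 FPKM in HDAC4 KO cells, against 843 and 1066 FPKM in controls, with 3 lower and 1 higher in both HDAC4 KO libraries. Control 3 stood apart through RNA of mature myofibres: 7 of 9 myofibre markers were restored and summed to 112 and 224 FPKM in HDAC4 KO cells, against 1633 and 150.1 FPKM in control 3 and control 4. RNA of markers of other cell types was also unevenly spread, among them endothelial, blood and fibro-adipogenic cells, which the gates on CD31, CD45 and Ter119, and Sca1 are meant to remove. Both HDAC4 KO libraries lay above both controls for 4 of 5 glial markers (sums of 30.8 and 27.8 FPKM in HDAC4 KO cells, against 13.8 and 13.1 in controls) and for 3 of 6 smooth muscle and pericyte markers (104 and 124 FPKM, against 53.4 and 38.6). They did so for 2 of 6 endothelial markers (18.6 and 17.8 FPKM in HDAC4 KO cells, against 17.1 and 9.48 in controls), 2 of 7 fibro-adipogenic markers (146 and 159 FPKM, against 179 and 110.6), 2 of 6 blood cell markers (9.44 and 9.39 FPKM, against 33.9 and 5.29) and 1 of 4 tendon markers (123 and 124 FPKM, against 94.0 and 127). Over all genes tested, 30.9% lay above both controls in both HDAC4 KO libraries and 17.7% below both. The marker counts take in only those with a mean of at least 1 FPKM. These were 4 glial, 3 smooth muscle and pericyte, 5 endothelial, 6 fibro-adipogenic, 4 blood cell and 2 tendon markers. Of the 7 fibro-adipogenic, 6 endothelial and 5 glial markers all were restored, and no restored marker was at 0 in every library. The part of other cells in the results below was not tested, the sums hold some genes of open level, and in bulk RNA a change in the number of cells of a type and in RNA per cell cannot be told apart.

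As a group the translation factors differed little between HDAC4 KO and control cells. By limma, with p adjusted over all 12168 genes tested, 0 of 56 members passed an adjusted p of 0.05, and 0 of all genes did (0%). At an unadjusted p under 0.05 stood 4 members, 7.14% of those tested, where 1765 of all genes (14.5%) did so. The 4 were Eif3g, Eif3c and Eef1b2, which lay higher in HDAC4 KO cells, and Eef1e1, which lay lower. Both HDAC4 KO libraries lay above both controls for 15 members (26.8%), against 30.9% of all genes tested, and below both for 8 members (14.3%), against 17.7%, so that neither share exceeded that of all genes. The median log2 difference, HDAC4 KO minus control, was 0.07 over the members and 0.04 over all genes, with 38 of 56 members and 57.4% of all genes above 0. The size of this shift depended on how the libraries were scaled. Scaling each library by its median ratio lowered HDAC4 KO against control by 0.06 on the scale of log2 FPKM, less for low genes on log2(FPKM + 1). It left 29 of 56 members above 0 and gave a median of 0.01. Quantile normalization gave -0.01 with 26 above 0. Both bring the median of all genes to about 0 by construction (-0.0083 with median ratios, -0.0054 with quantiles). A difference in library scale and a general change in RNA therefore cannot be told apart here. The 95% interval of the difference lay within 0.5 of 0 on the log2 scale for 35 members and within 1 for 54. The exceptions were Eif1ax and Eif4ebp3, whose intervals reached 1.08 and 1.498.

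**Figure D1:**
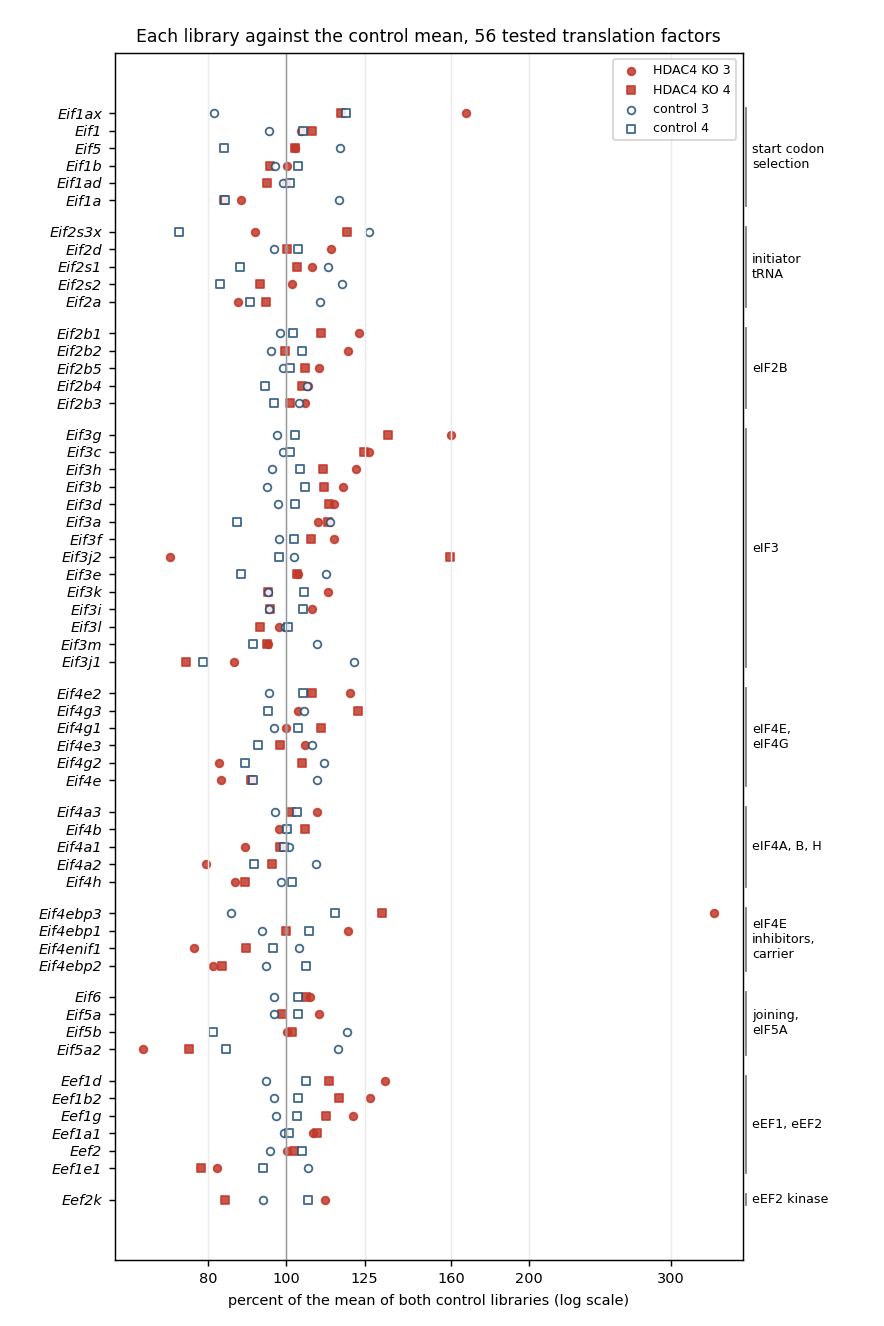
The level of 56 translation factors in each library, as a percentage of the mean of both control libraries, on a log axis, in rows by role. Filled symbols are the HDAC4 KO libraries and open symbols the controls, and the groups overlap for 33 of 56 members. Of all genes tested, 30.9% lay above both controls in both HDAC4 KO libraries and 17.7% below both, and the rest overlapped.

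Among the 34 members with a fixed level, Eef1a1 had the highest in every library on the scale of FPKM, which compares genes per length. The other 22 cannot be placed in this order. Eef1a1, which brings aminoacyl-tRNA to the ribosome, had 5296 and 5345 FPKM in HDAC4 KO 3 and HDAC4 KO 4, against 4871 and 4936 FPKM in control 3 and control 4. The next levels were those of Eef2, the translocase (1735 and 1769.9 FPKM in HDAC4 KO cells and 1651 and 1809.8 FPKM in controls), and Eif5a, the hypusine-bearing factor that helps the ribosome through difficult peptide bonds (1704 and 1533 FPKM in HDAC4 KO cells and 1498 and 1605 FPKM in controls). With Eef1b2, whose values follow, they lay in the same range, and their order changed from library to library. At the lower end of the members with fixed levels stood Eif3j1, Eif4e3 and Eif4ebp3, whose means over the 4 libraries were 4.94, 4.49 and 1.28 FPKM.

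**Figure D2:**
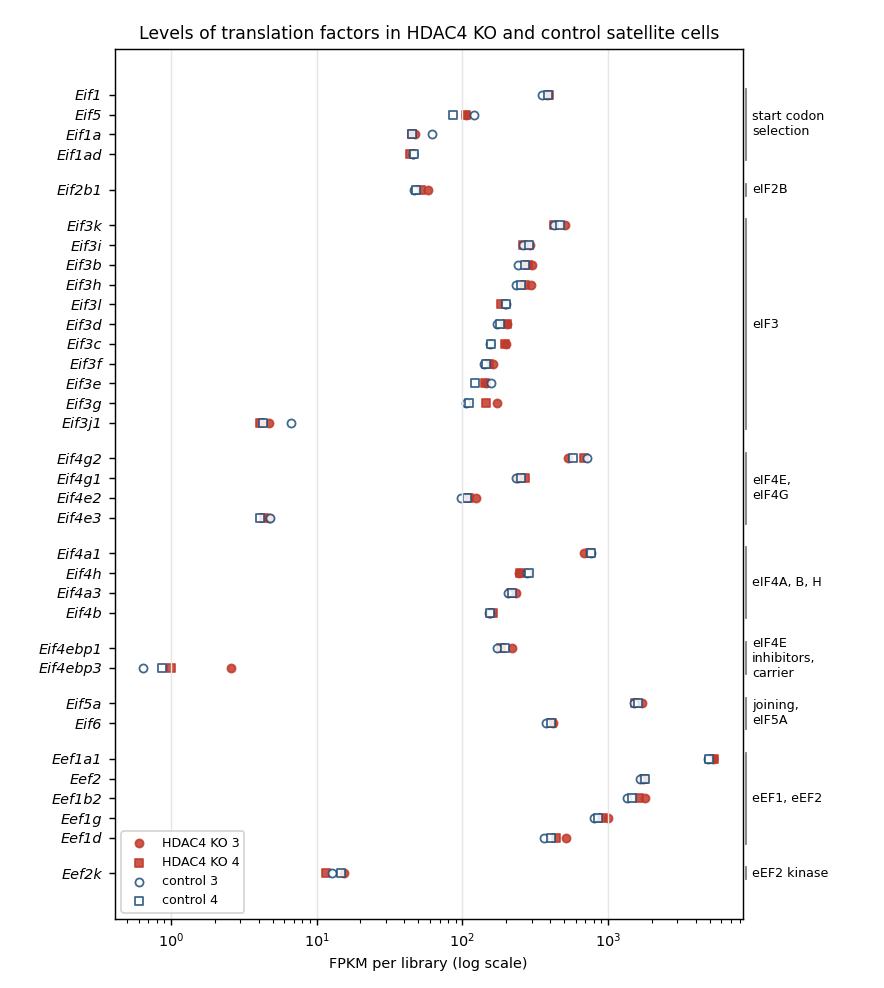
FPKM of the 34 translation factors with a fixed level in each library, on a log axis, in rows by role. Filled symbols are the HDAC4 KO libraries and open symbols the controls, and the means run from 1.28 FPKM for Eif4ebp3 to 5112 FPKM for Eef1a1.

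Among the elongation factors, the eEF1B subunits, which reload eEF1A with GTP, lay higher in both HDAC4 KO libraries. Eef1b2 (ENSMUSG00000025967, chromosome 1, 63176825 to 63180486, GRCm38), the alpha subunit with exchange activity, had 1783 and 1633 FPKM in HDAC4 KO cells, against 1357 and 1454 FPKM in control cells. Its difference was 0.28 ± 0.10 on the log2 scale (limma, unadjusted p = 0.0462, adjusted p = 0.336). Eef1d, the delta subunit, the other exchange subunit, had 513.0 and 437.4 FPKM in HDAC4 KO cells, against 364.9 and 409.4 FPKM in control cells (0.29 ± 0.13, limma adjusted p = 0.388). Eef1g, the gamma subunit that anchors the complex, had 995.9 and 923.1 FPKM in HDAC4 KO cells, against 798.6 and 848.5 FPKM in control cells (0.22 ± 0.10, limma adjusted p = 0.399). The groups did not overlap for any of the 3, and the lowest value of each was in control 3. Over all genes tested, both HDAC4 KO libraries lay above both controls for 30.9%. Of the 3, only Eef1b2 had an unadjusted p under 0.05 in limma. For Eef1g, 64.3% of the 50-base words of its transcript also occur in other genes, mostly Gm4366, so its level is uncertain. Eef1a1 differed by 0.12 ± 0.09 and Eef2 by 0.02 ± 0.10, and 60.6% of the words of Eef1a1 are shared with other genes.

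Eef1e1 (ENSMUSG00000001707, chromosome 13, 38644207 to 38659058), which encodes the p18 scaffold of the multisynthetase complex that holds aminoacyl-tRNA synthetases, went the other way. It stood at 82.0% and 78.2% of the control mean in HDAC4 KO cells, against 106.5% and 93.5% in control cells. The difference was -0.31 ± 0.11 (limma, unadjusted p = 0.0353, adjusted p = 0.317), with a 95% interval of -0.59 to -0.03. Leaving out a library moved it between -0.40 and -0.22. Eef2k, the kinase that inhibits eEF2, overlapped between groups with 15.3 and 11.5 FPKM in HDAC4 KO cells, against 12.9 and 14.6 FPKM in control cells. Eef1a2 replaces Eef1a1 in adult muscle fibres and was at or under 0.253 FPKM in 3 libraries but at 2.70 FPKM in control 3, the library with myofibre RNA: it had 0.253 and 0.219 FPKM in HDAC4 KO cells, against 2.7 and 0.127 FPKM in control cells, and was not tested. Eef1a1 was more abundant than Eef1a2 in every library, with Eef1a2 at 4.77e-05 and 4.09e-05 of it in HDAC4 KO cells, against 0.000555 and 2.58e-05 in controls.

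The eIF3 complex holds the small subunit open for the mRNA and held the largest difference of any member with a p under 0.05. Of its 14 members tested, 11 had a difference above 0 (8 of 14 with median-ratio scaling), where 57.4% of all genes tested did, and for 6 both HDAC4 KO libraries lay above both controls, where 30.9% of all genes did. Eif3g (ENSMUSG00000070319, chromosome 9, 20894349 to 20898623), an RNA-binding subunit that takes part in scanning, had 173.8 and 145.2 FPKM in HDAC4 KO cells, against 105.8 and 111.4 FPKM in control cells. The mean was 159.5 ± 20.2 FPKM in HDAC4 KO cells and 108.6 ± 4.00 FPKM in controls (SD, n = 2 each), and the difference was 0.55 ± 0.12 (limma, unadjusted p = 0.0081, adjusted p = 0.234). The adjusted p ranged from 0.0909 to 0.735 over the alternatives, and the log2 difference from 0.42 to 0.67 as each library was left out. Eif3c (ENSMUSG00000030738, chromosome 7, 126546455 to 126566411), a core subunit that contacts eIF1 and eIF5, had 198.7 and 195.7 FPKM in HDAC4 KO cells, against 155.2 and 158.5 FPKM in control cells, which gave 0.33 ± 0.08 (limma, unadjusted p = 0.0136, adjusted p = 0.253, adjusted p 0.16 to 0.735 over the alternatives). Both groups were tight, and the lower HDAC4 KO library stood well above the higher control. None of the words of Eif3g and 7.65% of those of Eif3c occur in another gene.

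The other eIF3 subunits without overlap were Eif3h (294.9 and 268.2 FPKM in HDAC4 KO cells and 232.0 and 251.2 FPKM in controls), Eif3b, the scaffold that binds Eif3g and Eif3i (299.8 and 283.7 FPKM in HDAC4 KO cells and 240.9 and 268.8 FPKM in controls), Eif3d, which can bind the cap of some mRNAs (203.9 and 201.3 FPKM in HDAC4 KO cells and 173.8 and 182.6 FPKM in controls), and Eif3f (163.9 and 153.8 FPKM in HDAC4 KO cells and 140.2 and 146.2 FPKM in controls). Their log2 differences ran from 0.15 to 0.22, with limma adjusted p from 0.414 to 0.507. Eif3l lay lower in both HDAC4 KO libraries by a small margin (195.5 and 185.2 FPKM in HDAC4 KO cells and 199.1 and 200.7 FPKM in controls, -0.07 ± 0.09). Eif3k, the most abundant member of the complex with a fixed level, and Eif3i overlapped. Eif3k had 504.9 and 425.5 FPKM in HDAC4 KO cells, against 426.4 and 471.5 FPKM in control cells, and Eif3i had 293.1 and 260.0 FPKM in HDAC4 KO cells, against 259.8 and 285.8 FPKM in control cells. Eif3g and Eif3i bind the same scaffold, and the level of Eif3g over that of Eif3i was 0.593 and 0.559 in HDAC4 KO cells and 0.407 and 0.390 in controls. Eif3a, the largest subunit, stood at 109.6% and 112.6% of the control mean in HDAC4 KO cells, against 113.1% and 86.9% in control cells, and Eif3e and Eif3m, subunits of the core, differed by 0.06 and -0.07. Eif3j1 and Eif3j2, near-identical copies of the loosely bound subunit, differed by -0.24 ± 0.21 and 0.09 ± 0.31. As 91.9% of the words of Eif3j2 occur elsewhere, mostly in Eif3j1, reads cannot be assigned between them.

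For the factors that bring the initiator tRNA and select the start codon, the groups overlapped for all 11 members in the main analysis. Over all genes tested, both HDAC4 KO libraries lay above both controls for 30.9% and below both for 17.7%, and the groups overlapped for the rest. With median-ratio scaling, 2 of the 6 start codon factors lay below both controls in both HDAC4 KO libraries, and with quantile normalization 1 did. Eif2s1, the eIF2 alpha subunit that stress kinases phosphorylate, stood at 107.7% and 103.1% of the control mean in HDAC4 KO cells, against 112.5% and 87.5% in control cells. Eif2s2, the beta subunit, stood at 101.6% and 92.7% of the control mean in HDAC4 KO cells, against 117.2% and 82.8% in control cells. Control 3 was the highest and control 4 the lowest library for both, and for Eif2s3x. Eif2s3x, the X-linked gamma subunit that binds the tRNA, stood at 91.5% and 119.0% of the control mean in HDAC4 KO cells, against 126.5% and 73.5% in control cells. Its order over the libraries, control 3, HDAC4 KO 4, HDAC4 KO 3, control 4, differed only at the top from that of Xist, the RNA of the inactive X chromosome, which had 20.98 and 62.4 FPKM in HDAC4 KO cells, against 58.8 and 2.56 FPKM in controls. The Y-linked copy Eif2s3y ran the opposite way, with 7.62 and 0.229 FPKM in HDAC4 KO cells, against 3.22 and 14.8 FPKM in controls. Libraries of both groups thus held X- and Y-linked RNA in unequal amounts, and the part of this in the other results was not tested. Eif2a and Eif2d, which can bring initiator tRNA without eIF2, differed by -0.13 ± 0.13 and 0.09 ± 0.11.

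Eif1 and Eif1b, paralogs that guard against wrong start codons, differed by 0.08 ± 0.10 and -0.03 ± 0.09. Eif1 had 383.6 and 396.1 FPKM in HDAC4 KO cells, against 350.0 and 386.2 FPKM in control cells, and Eif1b stood at 100.2% and 95.4% of the control mean in HDAC4 KO cells, against 96.7% and 103.3% in control cells. Eif5, which makes eIF2 hydrolyse its GTP, had 106.1 and 106.3 FPKM in HDAC4 KO cells, against 120.7 and 86.7 FPKM in control cells. The HDAC4 KO values of Eif5 were nearly equal and lay between the controls. Eif1ax, the X-linked eIF1A, stood at 167.0% and 116.9% of the control mean in HDAC4 KO cells, against 81.3% and 118.7% in control cells, a difference of 0.45 ± 0.24 with a 95% interval of -0.18 to 1.08. Its autosomal copy Eif1a had 47.2 and 45.0 FPKM in HDAC4 KO cells, against 62.4 and 45.0 FPKM in control cells. Eif1ad, an eIF1A-like domain protein of ribosome assembly, differed by -0.04 ± 0.09.

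The factor eIF2B exchanges GDP for GTP on eIF2 and is the target of phosphorylated eIF2. Its 5 subunits all had a difference above 0, between 0.05 for Eif2b3 and 0.22 for Eif2b1, where 57.4% of all genes tested did. None of the 5 had an unadjusted p under 0.05 in limma. Eif2b1, the alpha regulatory subunit, had 58.3 and 52.4 FPKM in HDAC4 KO cells, against 46.6 and 48.3 FPKM in control cells (limma adjusted p = 0.413). Eif2b5, the catalytic epsilon subunit, stood at 109.7% and 105.5% of the control mean in HDAC4 KO cells, against 99.1% and 100.9% in control cells. The groups did not overlap for these, and they did for Eif2b2, Eif2b3 and Eif2b4. Over all genes tested, both HDAC4 KO libraries lay above both controls for 30.9%. Eif2b2 stood at 119.3% and 99.6% of the control mean in HDAC4 KO cells, against 95.6% and 104.4% in control cells. With median-ratio scaling, the difference of Eif2b3 turned to -0.0096.

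The cap binding and helicase factors did not move as a unit. Eif4e, the cap binding protein, stood at 83.0% and 90.3% of the control mean in HDAC4 KO cells, against 109.1% and 90.9% in control cells. The groups did not overlap, though HDAC4 KO 4 and control 4 were nearly equal, and the difference was -0.20 ± 0.13 (limma adjusted p = 0.518). Eif4e2, the related protein 4EHP that takes part in repression, lay higher (0.18 ± 0.11). It had 123.9 and 111.4 FPKM in HDAC4 KO cells, against 98.3 and 108.6 FPKM in control cells. With median-ratio scaling its groups overlapped. Eif4e3 overlapped with 4.69 and 4.37 FPKM in HDAC4 KO cells, against 4.79 and 4.11 FPKM in control cells, and the germ cell form Eif4e1b was at 0.012 FPKM or below in every library. The scaffold Eif4g1 had 242.5 and 268.2 FPKM in HDAC4 KO cells, against 234.8 and 251.1 FPKM in control cells. Eif4g2, a scaffold that lacks the eIF4E binding site, was more abundant in every library, with 535.4 and 679.5 FPKM in HDAC4 KO cells, against 722.2 and 576.4 FPKM in control cells. Eif4g2 stood at 2.21 and 2.53 times Eif4g1 in HDAC4 KO cells and 3.08 and 2.30 times in controls. Eif4g3 differed by 0.17 ± 0.13.

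The helicase Eif4a1 had 679.6 and 750.9 FPKM in HDAC4 KO cells, against 770.5 and 759.3 FPKM in control cells, and 65.3% of its words are shared, mostly with the pseudogene Eif4a-ps4. Its partner Eif4h, which stimulates the helicase, had 243.5 and 250.3 FPKM in HDAC4 KO cells, against 277.5 and 286.4 FPKM in control cells, a difference of -0.19 ± 0.09 (limma adjusted p = 0.403), and its unadjusted p fell under 0.05 with both other scalings. The groups did not overlap for either, and 17.7% of all genes tested lay below both controls in both HDAC4 KO libraries. Eif4a2, the paralog linked to repression by miRNAs, overlapped at 79.5% and 95.9% of the control mean in HDAC4 KO cells, against 108.9% and 91.1% in control cells. Eif4b, the other helicase partner, and Eif4a3, of the exon junction complex, differed by 0.02 ± 0.09 and 0.07 ± 0.10.

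Of the proteins that hold eIF4E back, Eif4ebp1, the main target of mTOR in the group, had 219.5 and 184.1 FPKM in HDAC4 KO cells, against 171.9 and 196.7 FPKM in control cells and overlapped. Eif4ebp2 stood at 81.0% and 83.1% of the control mean in HDAC4 KO cells, against 94.3% and 105.7% in control cells, without overlap (-0.24 ± 0.12, limma adjusted p = 0.429). Eif4ebp3 had the largest difference of all members, 0.61 ± 0.34, with a 95% interval of -0.29 to 1.498 and a limma adjusted p of 0.474. Its values were 2.58 and 0.999 FPKM in HDAC4 KO cells, against 0.649 and 0.873 FPKM in control cells. This difference rested on HDAC4 KO 3: without that library it was 0.19, and 65.5% of the words of Eif4ebp3 also occur in another gene, AC115631.1. Eif4enif1, the transporter that carries eIF4E to the nucleus and to P-bodies, stood at 76.9% and 89.2% of the control mean in HDAC4 KO cells, against 103.8% and 96.2% in control cells (-0.21 ± 0.13), also without overlap.

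Eif5a2, a paralog of Eif5a found mainly in testis, brain and tumours, stood at 66.5% and 75.7% of the control mean in HDAC4 KO cells, against 115.8% and 84.2% in control cells, the lowest log2 difference of the members (-0.32 ± 0.19, limma adjusted p = 0.491). Without control 3 it was -0.16. Eif6, which keeps the large subunit from joining early, had 419.3 and 413.4 FPKM in HDAC4 KO cells, against 378.3 and 404.6 FPKM in control cells (0.09 ± 0.09) and turned to -0.03 after quantile normalization. Eif5b, the joining GTPase, stood at 100.2% and 101.5% of the control mean in HDAC4 KO cells, against 118.9% and 81.1% in control cells. Eif2c5, an older symbol of the argonaute type rather than a translation factor, was listed at 0 in 3 libraries and at 0.0131 FPKM in control 4.

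**Figure D3:**
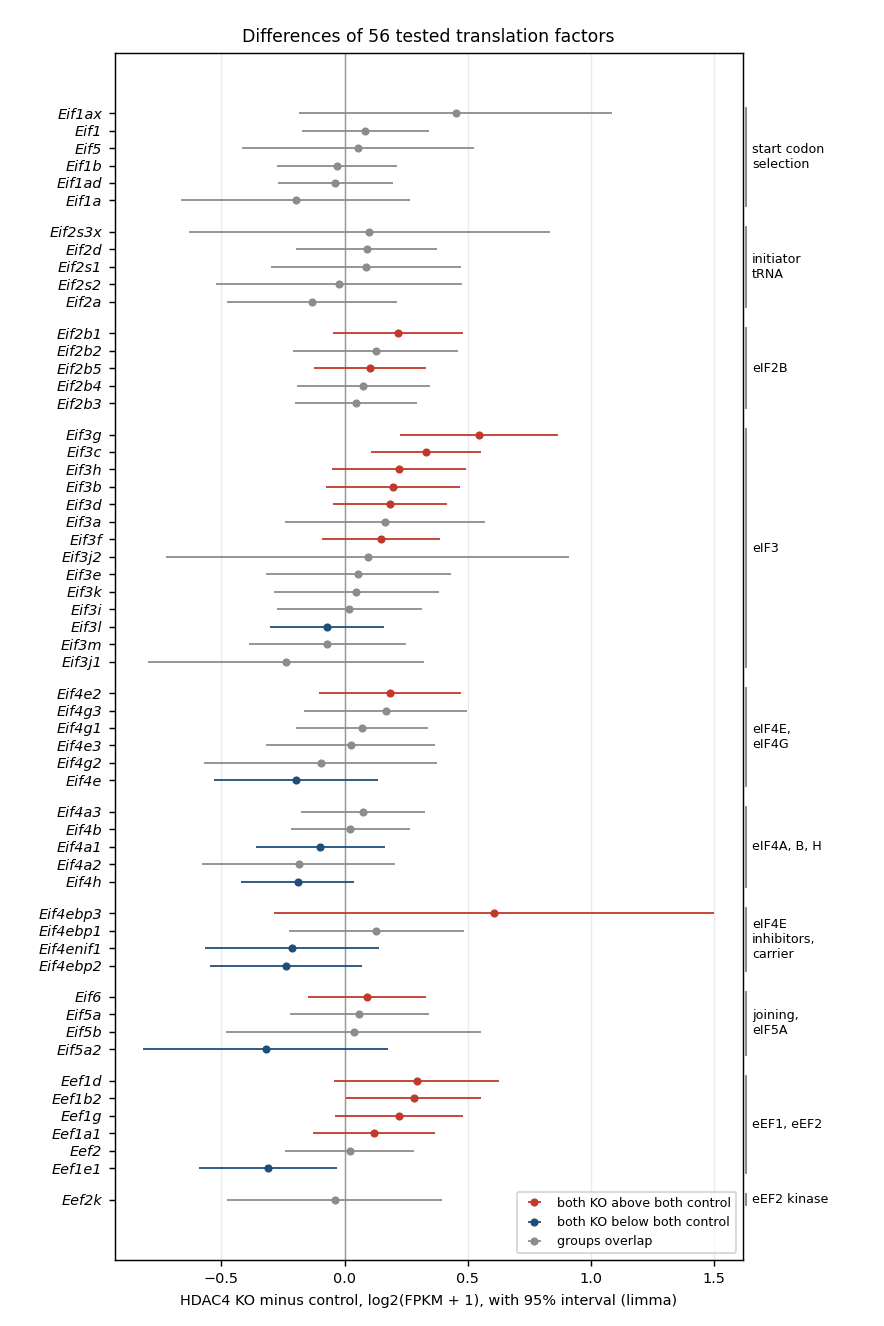
HDAC4 KO minus control on the log2(FPKM + 1) scale with the 95% interval from limma for 56 translation factors, in rows by role. Red marks the 15 members whose HDAC4 KO libraries both lay above both controls, blue the 8 that lay below, and the interval excludes 0 for 4 members.

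Promoters of the members were read to see what they share beyond their names. RefSeq promoters on GRCm38.p6 (250 bases before to 50 after a start) were found for 45 of the 59 members. The motifs were chosen after some of the members' promoters had been seen, and a match is a description of letters and not of a bound site. The E-box CACGTG, which reads the same on both strands and is the sequence that MYC and MAX bind, stood in 12 of 45 members (26.7%), in 1050 of 8436 tested genes with a promoter (12.4%) and in 8.1% of all 27025 genes. CCGGAAGT, the ETS motif, searched on both strands, stood in 8 members (17.8%), against 9.9% of tested genes and 4.3% of all genes, and AAGATGGC, the YY1 motif, in 5 members (11.1%), against 5.7% and 3.2%. None of the 3 motifs contains another, and each was counted on its own. Windows of 30 bases are shown for E-boxes in promoters of cap binding and helicase factors, Eef2, the eIF5A pair and Eif3f, the member with an E-box that lay higher in both HDAC4 KO libraries, with the E-box in capitals, 5′ to 3′ on the strand of the gene.
Eef2, chr10:81176576-81176605, plus strand: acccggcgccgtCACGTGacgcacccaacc
Eif4e, chr3:138527192-138527221, plus strand: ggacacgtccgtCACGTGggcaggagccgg
Eif4g1, chr16:20672661-20672690, plus strand: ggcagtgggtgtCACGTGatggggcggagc
Eif4a1, chr11:69672595-69672624, minus strand: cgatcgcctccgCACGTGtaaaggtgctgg
Eif4h, chr5:134639488-134639517, minus strand: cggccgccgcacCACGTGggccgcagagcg
Eif5a, chr11:69920791-69920820, minus strand: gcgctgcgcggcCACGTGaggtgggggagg
Eif5a2, chr3:28781123-28781152, plus strand: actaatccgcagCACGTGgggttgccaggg
Eif3f, chr7:108934335-108934364, plus strand: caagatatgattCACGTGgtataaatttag
The ETS motifs of Eef1b2, of a pair of eIF3 genes and of Eif5a2 and a YY1 motif of Eef1e1 are shown, since Eef1b2 and Eef1e1 had a p under 0.05 and Eif3d and Eif3l lay on opposite sides, with the motif in capitals. On the strand of Eif3d and Eif3l it reads ACTTCCGG, its reverse complement.
Eef1b2, chr1:63176821-63176850, plus strand: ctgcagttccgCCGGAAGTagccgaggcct
Eif3d, chr15:77970877-77970906, minus strand: agctgtgacacACTTCCGGttgtgtctcac
Eif3l, chr15:79075176-79075205, plus strand: ggctgggcgggACTTCCGGtccggccaagc
Eif5a2, chr3:28781230-28781259, plus strand: cggggcctatcCCGGAAGTgtggtcgcggc
Eef1e1, chr13:38658979-38659008, minus strand: gagctgggccagAAGATGGCggcggccgcg
Of the 12 tested members with an E-box, 6 had a difference above 0 (median -0.0055). Of the 12, Eif4a1, Eif4e, Eif4h and Eif5a2 lay lower in both HDAC4 KO libraries. Of the 31 tested members with a promoter and no E-box, 21 had a difference above 0 (median 0.08) and 4 lay lower in both. Over all tested genes the medians with and without an E-box were 0.04 each. Of these genes, 56.5% with and 57.9% without were above 0, and 18.2% and 17.3% lay lower in both HDAC4 KO libraries. Of the 8 members with an ETS motif, 6 had a difference above 0 (median 0.10). In both HDAC4 KO libraries 3 lay higher and 2 lower. Over all tested genes with an ETS motif, 57.4% were above 0, 31.2% lay higher in both and 17.9% lower. Of the 5 members with a YY1 motif, 2 had a difference above 0 (median -0.10), 1 lay higher in both and 3 lower. Over all tested genes with a YY1 motif the shares were 57.3%, 31.7% and 18.1%. These splits are descriptions and were not tested.

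Over the members the median size of the log2 difference was 0.11 between HDAC4 KO and control means, 0.11 between HDAC4 KO 3 and HDAC4 KO 4, and 0.14 between control 3 and control 4. The first is a difference of means of 2 libraries and the others of single libraries, so their sizes are no test of each other. HDAC4 KO 3 was the highest library for 25 members (44.6%, against 29.1% of all genes) and control 3 for 19 (33.9%, against 24.3%). Control 3 was also the lowest for 25 (44.6%, against 33.7%), so that it stood at one end of the range for most members. Members highest in control 3 included the eIF2 subunits, Eif3a, Eif4e, Eif5 and Eif5b, and those lowest in it the eEF1B subunits and Eif3b, Eif3c, Eif3d, Eif3f, Eif3g and Eif3h.

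These differences moved with exonic length, as a plot of the members shows. Across the 56 members, which are no independent replicates, Spearman's rho with exonic length was -0.31 for HDAC4 KO minus control, -0.33 for HDAC4 KO 3 minus HDAC4 KO 4 and 0.37 for control 3 minus control 4. Over 12076 genes with a length the same values were -0.07, -0.25 and 0.22. The 28 members of up to 3757 bases had a median difference between groups of 0.09 and the 28 longer ones of 0.03. All genes split at this length had nearly the same medians, 0.07 and 0.03. Between control 3 and control 4 the medians were -0.09 and 0.20 for the members, against -0.07 and 0.02 over all genes. The part of transcript length or RNA quality in the differences of single members was not tested.

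**Figure D4:**
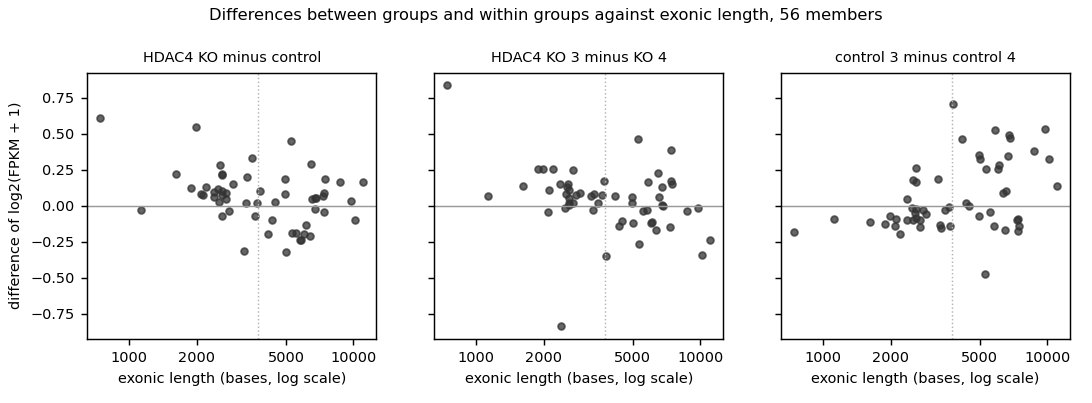
Log2 differences of 56 members against exonic length in bases on a log axis, for HDAC4 KO minus control, HDAC4 KO 3 minus HDAC4 KO 4 and control 3 minus control 4, with the members' median length as a dotted line. Longer members tend to lie higher in control 3 than in control 4 and lower in HDAC4 KO 3 than in HDAC4 KO 4.

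The regulators of these factors were followed in lists of other genes of the pathway. Of 42 tested genes that are not members, 5 lay higher and 1 lower in HDAC4 KO cells at an unadjusted p under 0.05 in limma, where 14.5% of all genes did so, 0 passed after adjustment, and the median difference was 0.02. Among 7 eIF2 kinases, phosphatase subunits and Atf4, 5 were above 0 and 4 lay above both controls in both HDAC4 KO libraries, against 57.4% and 30.9% of all genes tested. Below both controls lay 1, the phosphatase subunit Ppp1r15b, against 17.7% of all genes. It stood at 78.1% and 89.0% of the control mean in HDAC4 KO cells, against 98.1% and 101.9% in control cells. At p under 0.05 stood Ppp1r15a, the stress-induced subunit that directs dephosphorylation of eIF2, which stood at 163.0% and 200.4% of the control mean in HDAC4 KO cells, against 117.2% and 82.8% in control cells (0.66 ± 0.19, limma unadjusted p = 0.0201, adjusted p = 0.272). Among 14 tested genes of mTOR complex 1 and MNK signalling, 7 lay above both controls in both HDAC4 KO libraries, against 30.9% of all genes tested. Below both lay 2, Mknk2 and Rheb, against 17.7%. The 3 with an unadjusted p under 0.05, against 14.5% of all genes, were the inhibitors Ddit4, Sesn2 and Pdcd4. Ddit4 (REDD1), which restrains mTOR complex 1, had 32.4 and 34.0 FPKM in HDAC4 KO cells, against 17.3 and 25.6 FPKM in control cells (0.63 ± 0.20, limma unadjusted p = 0.0289, adjusted p = 0.299). Sesn2, a leucine sensor that restrains it too, stood at 143.4% and 164.4% of the control mean in HDAC4 KO cells, against 90.9% and 109.1% in control cells (0.59 ± 0.13, limma unadjusted p = 0.00867, adjusted p = 0.241). Pdcd4, which blocks eIF4A, stood at 141.9% and 179.1% of the control mean in HDAC4 KO cells, against 104.2% and 95.8% in control cells (0.65 ± 0.14, limma unadjusted p = 0.00754, adjusted p = 0.232). None of the 4 passed after adjustment.

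Of 8 factors of termination, recycling and rescue, 1 had an unadjusted p under 0.05 in limma, where 14.5% of all genes did. It was Denr, which frees the last tRNA from the small subunit and aids reinitiation. Denr had 144.5 and 124.3 FPKM in HDAC4 KO cells, against 93.9 and 78.4 FPKM in control cells (0.64 ± 0.14, limma unadjusted p = 0.0074, adjusted p = 0.232). In both HDAC4 KO libraries 3 of the 8 lay above both controls and 1, Mcts1, below both, against 30.9% and 17.7% of all genes. Of 8 enzymes that make hypusine on eIF5A and diphthamide on eEF2, 1 was above 0, where 57.4% of all genes tested were. At an unadjusted p under 0.05 stood 1 of the 8, where 14.5% of all genes did. This was Dph1, of the first step of diphthamide synthesis. It stood at 74.9% and 82.5% of the control mean in HDAC4 KO cells, against 99.7% and 100.3% in control cells (-0.33 ± 0.10, limma unadjusted p = 0.0204, adjusted p = 0.272). Of 5 poly(A) binding proteins and partners, none had a p under 0.05, and the median difference was 0.00066. In the list of 11 genes whose mRNAs begin with a terminal oligopyrimidine (TOP) tract and are translated under mTOR, 9 of them members, all 11 differences were above 0 (57.4% of all genes tested) with a median of 0.14 (0.04 over all genes), and for 8 both HDAC4 KO libraries lay above both controls (30.9% of all genes). With median-ratio scaling 8 of 11 stayed above 0 (median 0.08), and with quantile normalization 7 (median 0.09). At an unadjusted p under 0.05 in limma stood 1 of the 11, Eef1b2, where 14.5% of all genes did, and 0 passed after adjustment. The list holds no ribosomal protein genes, so these counts cover the 11 alone.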

How the data were processed

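RNA of 4 libraries of mouse satellite cells was sequenced from a stranded poly(A) kit with single-end reads. Per the labels, the authors used CASAVA 1.8.2, trimmed reads with cutadapt, aligned them with TopHat to GRCm38 and made FPKM with Cufflinks, and pooled FPKM with Cuffdiff, and these FPKM tables were deposited. The deposited log2 ratio of the authors' comparison had lost points too and is treated as a score. It was used only as a checksum for placing points, never as a result, and that table's p-values and test calls were not used.

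Points were restored so that each value lay midway between its confidence bounds, within 4e-05 of the upper bound. Where the lower bound was 0, a value under the middle was accepted too. Both group means were matched to the authors' pooled FPKM and ratio, within 0.02 and 0.002 on the log2 scale. Genes whose points were fixed within the libraries alone were kept without this match, and 13179 of these 13353 gave the authors' values. Of 43437 genes, 25535 were kept, 17712 were at 0 throughout and the rest failed. A power of 10 common to all libraries was open for 8192 of 12168 tested genes; the likeliest was taken from the width of the bounds. When known levels were hidden, it found 85.1% of 3129.

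Genes whose mean reached 1 FPKM were tested on log2(FPKM + 1) with limma 3.58.1 (R 4.3.3, mean-dependent prior, Benjamini-Hochberg over all genes tested), without a replicate block. Fold changes on this scale understate low genes. Genes with at least 1 FPKM numbered 12077 and 12056 in HDAC4 KO and 11993 and 11832 in control libraries. The tables give no counts, so no count test was possible. Fit and restoration were tested on simulated data. Alternatives were other pseudocounts, filters, scalings, priors, blocks and restorations and leaving out each library.

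The members, gene lists and tests were chosen with earlier results of these data known. Values per library were given by rule for members with an unadjusted p under 0.05, the 5 largest differences each way without overlap, the 2 most abundant of each role, paralog sets, and pathway genes with an unadjusted p under 0.05. Other members were named freely, and those named for their pattern were chosen after their values were seen. Coordinates are from GENCODE vM21 on GRCm38. Shared sequence was counted as the share of 50-base words of a member's transcripts that occur in other genes.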

Additional observations from a re-analysis of the deposited data

How the results depend on the processing

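Under every alternative 0 members passed an adjusted p of 0.05 in limma, and the members with an unadjusted p under 0.05 numbered 4 in the main analysis, 2 with a constant prior spread, 1 with the replicate block and 2 to 6 with a library left out (2 without either HDAC4 KO library, 6 without control 4). Of the 4, Eif3g lost this side without control 3, Eif3c without either HDAC4 KO library, Eef1e1 without any library but control 4, and Eef1b2 without any library. Over all genes, 0 passed, against 17 with a filter at a mean of 5 FPKM, 77 with protein-coding genes alone, 13 with a constant prior spread, 1 with the replicate block, 7 with points placed without the authors' comparison, 4 with the lowest level where it is open, and 0 to 65 with a library left out (65 without control 3, 64 without control 4). The count at an unadjusted p under 0.05, 1765, became 2778 with no filter, where more genes were tested, and 805 to 1993 with a library left out (805 without HDAC4 KO 3, 983 without HDAC4 KO 4). The other causes were not tested. With all 4 libraries, Eef1b2 also lost its unadjusted limma p under 0.05 with a pseudocount of 5, no filter and a filter at a mean of 5 FPKM. It did so too with median-ratio scaling, a constant prior spread and the replicate block. Eef1e1 lost it with the constant prior spread and the replicate block, and Eif3c with the replicate block.

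Same-numbered libraries of the groups did not deviate together (correlation of deviations -0.11, a pairing check), so the block is only an alternative. Crossing the numbers gave 0 genes called and 8 members with an unadjusted p under 0.05. The lowest level and the crossed pairing were chosen after seeing the data.

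The members' median log2 difference was 0.065, 0.0084 with median-ratio scaling and -0.0074 with quantile normalization. Both HDAC4 KO libraries lay above both controls for 15 members in the main analysis and for 13 with either scaling. Below both lay 8 in the main analysis, 10 with median ratios and 8 with quantiles. The shares over all genes under these scalings are not given here. Scaling by median ratios gave 9 members the other sign: -0.037 (Eef2), -0.0096 (Eif2b3), -0.00081 (Eif3e), -0.038 (Eif3i), -0.0090 (Eif3k), -0.033 (Eif4b), -0.023 (Eif4e3), -0.0029 (Eif5), -0.019 (Eif5b). Quantile normalization did so for 12: -0.060 (Eef2), -0.021 (Eif1), -0.0097 (Eif3e), -0.057 (Eif3i), -0.066 (Eif3k), -0.018 (Eif4a3), -0.044 (Eif4b), -0.029 (Eif4e3), -0.0031 (Eif5), -0.053 (Eif5a), -0.0052 (Eif5b), -0.026 (Eif6). Leaving out a library turned 33 values of 25 members, with ranges of Eef2 -0.047 to 0.086, Eef2k -0.23 to 0.15, Eif1a -0.43 to 0.032, Eif1b -0.077 to 0.015, Eif2a -0.27 to 0.0079, Eif2b2 -0.0038 to 0.25, Eif2b3 -0.0044 to 0.096, Eif2b4 -0.0074 to 0.16, Eif2s1 -0.092 to 0.26, Eif2s2 -0.27 to 0.23, Eif2s3x -0.25 to 0.45, Eif3a -0.026 to 0.35, Eif3e -0.12 to 0.23, Eif3i -0.067 to 0.11, Eif3j1 -0.50 to 0.023, Eif3j2 -0.33 to 0.51, Eif3k -0.075 to 0.17, Eif3m -0.20 to 0.060, Eif4b -0.031 to 0.078, Eif4e3 -0.067 to 0.11, Eif4g1 -0.0016 to 0.14, Eif4g2 -0.27 to 0.075, Eif5 -0.18 to 0.29, Eif5a -0.016 to 0.14, Eif5b -0.23 to 0.30. The groups overlapped for all of these. The deposited tables give no depth, and with 2 libraries a group most of the members' intervals included 0. The signs of the other members held under all of these settings, and under the other pseudocounts, filters, blocks and restorations no member's sign turned.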
